A study of Mus musculus with 40 samples.

Results

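The 43 tiles described here are stretches of 100 bp of the mouse genome that were highly methylated in pro-B cells and far less methylated in follicular B cells, both in wild-type (WT) mice and in mice lacking the enzymes Tet2 and Tet3 (double knockout, DKO). They were chosen from 971845 tiles by their measured levels. A selected tile lies on an autosome, has a value in all 3 follicular WT and all 3 follicular DKO libraries and in at least 6 of the 12 pro-B libraries, and has a mean of at least 75% over the pro-B libraries, at most 55% in follicular WT and at most 60% in follicular DKO. Of the 316162 tiles with the values this choice needs, 167022 had a pro-B mean of at least 75%. A further 374 met the pro-B and WT limits but lay above 60% in DKO, and they serve as the comparison set. The single knockouts of Tet2 and of Tet3 in follicular cells took no part in the choice. The level in WT, DKO and pro-B cells is therefore a description of how the tiles were picked, and the single knockouts are the independent measurement.

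Methylation of cytosine in CpG dinucleotides is a repressive mark at many promoters and enhancers, and much of it is lost at lineage enhancers as blood cells mature. It can be lost in more than one way. The TET enzymes oxidise 5-methylcytosine, and the oxidised bases are then diluted at replication or excised and repaired; methylation can also be diluted passively when the maintenance methyltransferase does not copy it onto the new strand. Tet2 and Tet3 are the TET family members most studied in B-lineage cells. Tet1, the other member of the family, is named as deleted in no group.

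Reduced representation bisulfite sequencing (RRBS), which reads methylation in CpG-rich restriction fragments, had been applied to 24 libraries in 8 groups of 3. The pro-B cell, a committed precursor that is rearranging its heavy-chain gene, and the follicular B cell, the main mature B cell of spleen and lymph nodes, came from C57/bl mice that were wild type, knockout for Tet2 (Tet2KO), knockout for Tet3 (Tet3KO) or knockout for both (DKO). The labels call the knockouts inducible and place them under the MB1 promoter, which is active in B-lineage cells. The mice were 6 or 8 weeks old in WT and Tet2KO, 7 in Tet3KO, and 6 or 7 in DKO. Tet3KO thus shared no age with WT or Tet2KO, and in comparisons with them age cannot be told apart from genotype. All 6 Tet2KO libraries came from females, and each other group held both sexes. Libraries carry the running number of their labels, 1 to 12 for pro-B cells and 13 to 24 for follicular cells, with 3 consecutive numbers each for WT, Tet2KO, Tet3KO and DKO. Whether each library is a separate mouse is not stated in the labels, so that SDs and p-values measure the spread between these libraries only. The table holds methylation levels and no transcripts, so the labelled stage could not be set against marker genes, nor the genotype against the deleted genes.

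The deposited values were a methylation level per tile and library without read counts. Depth is therefore unknown, and extreme values such as 0% or 100% may come from few reads. Libraries had values at 24600 to 631415 tiles. Pro-B Tet3KO library 8 was far below the rest and had a value at 1 of the 43 tiles. The other 11 pro-B libraries had values at 27 to 43 of them. Follicular Tet3KO library 21 had a value at 33, and the other 11 follicular libraries at 41 to 43. Only 14 tiles had a value in at least 11 pro-B libraries.

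By the rule the tiles had to be high in pro-B cells and lower in follicular WT and DKO cells. Their pro-B mean ran from 75.5% to 96.4% with a median of 81.0%, and 21 of the 43 lay under 80%, close to the floor. Follicular WT ran from 7.21% to 54.7% (median 45.6%) and follicular DKO from 21.7% to 59.9% (median 51.1%). The choice crowded the limits. Just inside the pro-B floor were tile 4b (chr4:129707001-129707100) at 75.5% and tile 11d (chr11:48655701-48655800) at 75.6%, and the nearest tiles outside were at 74.5% and 74.4%. Just inside the WT ceiling were tile 12c (chr12:5065301-5065400) at 54.7% and tile 6b (chr6:144130001-144130100) at 54.1%, with the next ones outside at 55.03% and 55.3%. At the DKO ceiling, tile 12b (chr12:5063801-5063900) at 59.9% and tile 6b at 59.6% were inside, and tiles at 60.3% and 60.4% were outside. The number of tiles followed the limits, with 5 left at 80%, 45% and 50%, and 168, of which 29 were among the 43, where the pro-B mean was taken from WT alone. Tile names give the chromosome and a letter in order of position, and coordinates are in build mm9.

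In both single knockouts, which the rule did not use, the selected tiles were also at intermediate levels. The mean over the tiles was 50.1%, 44.7% and 49.3% in Tet2KO libraries 16, 17 and 18, and 48.2%, 49.999% and 55.1% in Tet3KO libraries 19, 20 and 21. These are 48.0% ± 2.90 for Tet2KO and 51.1% ± 3.60 for Tet3KO (SD, n = 3 each), beside 43.7% ± 1.70 in WT and 48.3% ± 1.25 in DKO. All 6 single knockout libraries lay far below the 11 pro-B libraries with values at 27 or more of the tiles, whose means ran from 76.7% to 88.0%. The pro-B side of that gap was set by the rule, and in pro-B libraries left out of the choice the gap was smaller, at 16.6 points in Tet2KO and 18.7 in Tet3KO. Tet2KO, Tet3KO and DKO overlapped one another, and Tet2KO library 17 also lay below WT library 13 at 45.3%. All 3 Tet3KO libraries lay above WT, which the rule held low. Library 21 was the highest follicular library and had the fewest of the tiles, and without it the Tet3KO mean was 49.1%. Over the 30 tiles with a value in all 12 follicular libraries it was still the highest, at 55.5%. On those 30 tiles the other Tet3KO libraries were at 47.6% and 51.9%, Tet2KO at 51.8%, 46.2% and 50.8%, WT at 45.5%, 45.3% and 46.5%, and DKO at 49.2%, 45.7% and 50.6%. In DNA pooled from many cells, an intermediate level cannot be told apart from a mixture of cells with and without the methylation.

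**Figure D1:**
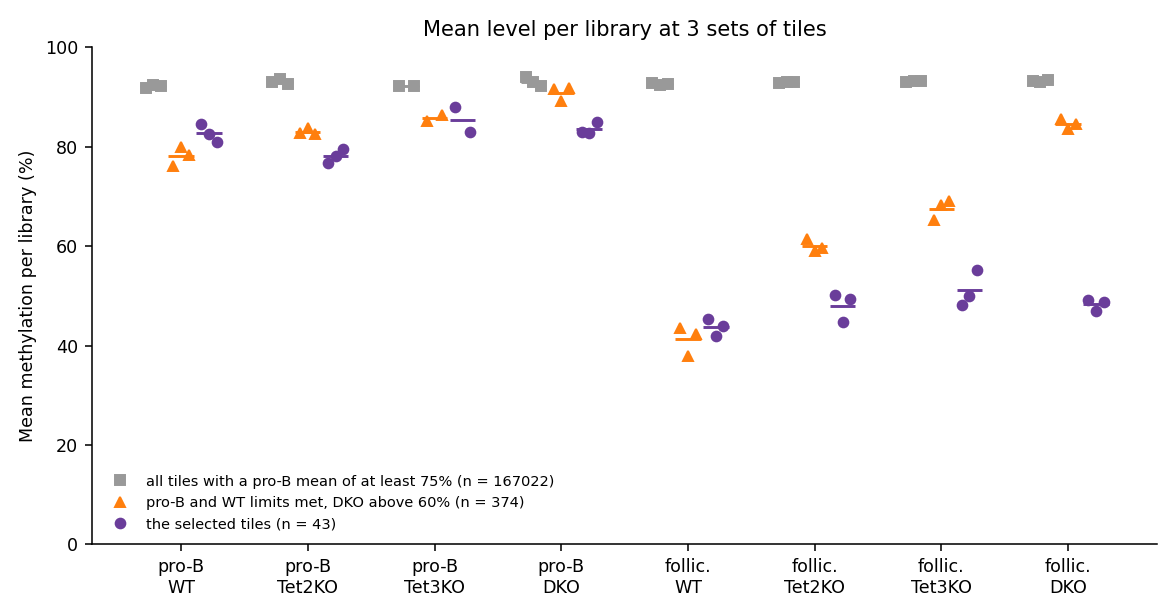
Mean methylation (%) of each library (points) over 3 sets of tiles, by stage and genotype, with group means as lines; library 8 is left out. At the selected tiles the 6 follicular single knockout libraries sit between 44.7% and 55.1%, and at the tiles with DKO above 60% between 59.1% and 69.1%.

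The single knockouts were higher in the comparison set than at the selected tiles. At the 374 tiles where follicular DKO stayed above 60%, follicular WT was at 41.3% ± 3.03, Tet2KO at 60.04% ± 1.24, Tet3KO at 67.6% ± 1.98 and DKO at 84.6% ± 0.963 (SD, n = 3 each). The WT level was thus close to that of the selected tiles by construction, while every Tet2KO library (59.1% to 61.4%) and every Tet3KO library (65.3% to 69.1%) lay above the highest single knockout library at the selected tiles. Follicular WT was chosen low in both sets, so the distance of the single knockouts from WT is not read as a difference. At tiles chosen without the WT library measured, and also without 1 DKO library and the pro-B libraries of 1 genotype, WT was at 52.8% ± 1.49, Tet2KO at 53.2% ± 1.54 and Tet3KO at 54.99% ± 1.66 (SD, n = 3 each), and the 3 groups overlapped. The DKO libraries, when left out, were at 58.6%, 56.5% and 60.1%, above every library of these 3 groups. The ceiling of the rule was higher for DKO, at 60%, than for WT, at 55%. Over all 167022 tiles with a pro-B mean of at least 75%, the 4 follicular genotypes were within 1 point of each other, at 92.6%, 92.9%, 93.2% and 93.2%.

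Counted tile by tile, 38 of the 43 selected tiles (88.4%) had a Tet2KO mean at or under 60%, the ceiling the rule set for DKO. For Tet3KO it was 30 of the 42 tiles (71.4%) with at least 2 values. In the comparison set the counts were 157 of 372 (42.2%) and 97 of 369 (26.3%), and over all tiles of high pro-B level 0.260% and 0.212%. Both single knockouts were at or under the ceiling at 28 of 42 selected tiles (66.7%), against 74 of 367 (20.2%) in the comparison set. Neither was at 3 of 42, against 189 of 367 (51.5%). No selected tile had a single knockout mean of 75% or more, whereas 138 of 367 tiles of the comparison set did (37.6%). The tiles of both sets share all libraries, and no test was made of these counts.

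**Figure D2:**
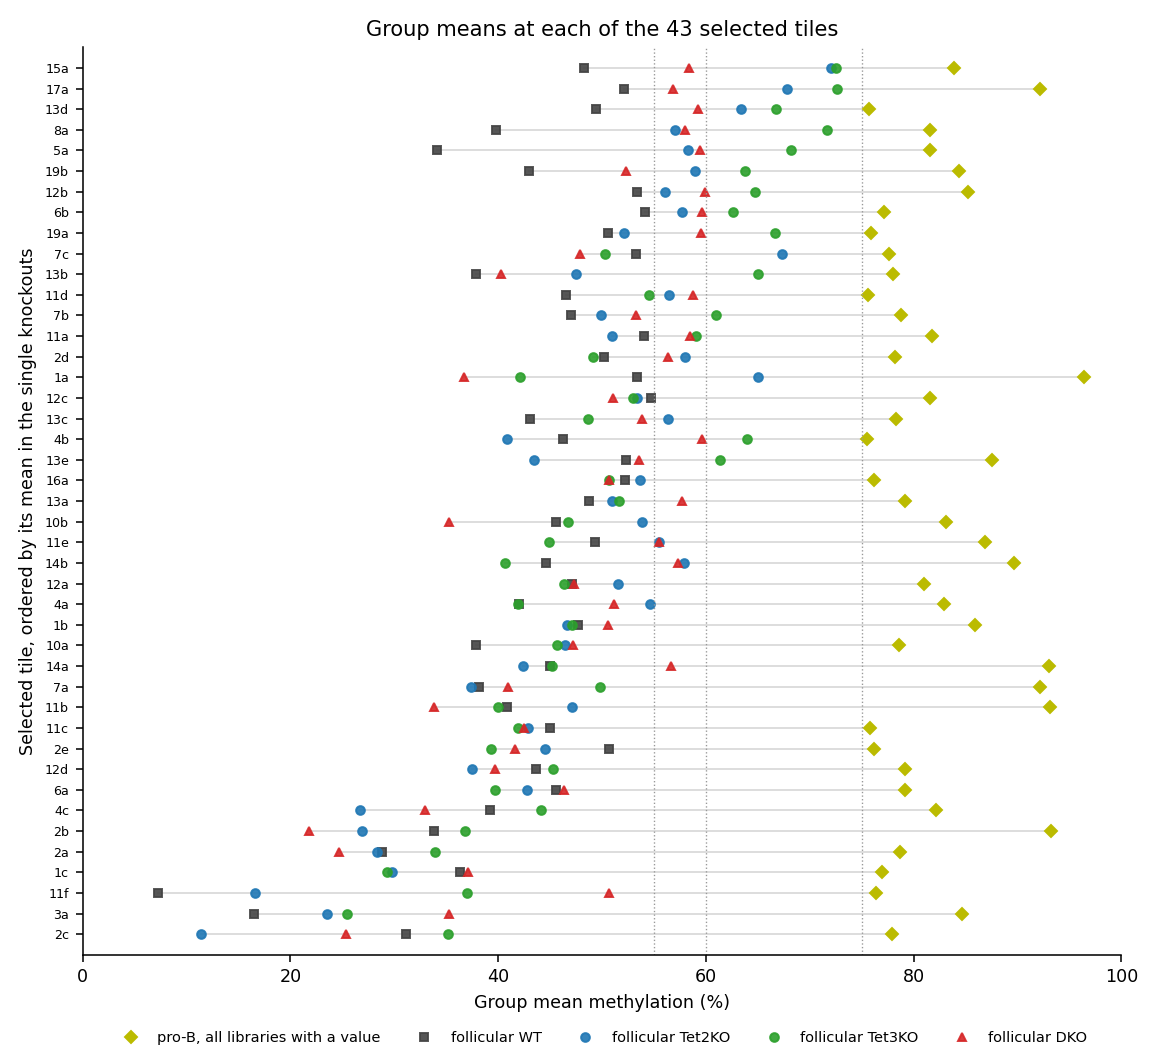
Group mean methylation (%) at each of the 43 selected tiles, ordered by the mean of the single knockouts: pro-B over all libraries with a value (diamonds) and the 4 follicular genotypes. The dotted lines are the limits of the rule, 55% for WT, 60% for DKO and 75% for pro-B. At 28 tiles both single knockouts lie left of the 60% line. Tile 8a has 1 Tet3KO value.

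The tiles differed widely from one another in level. At single tiles the genotypes differed too, with Tet3KO minus Tet2KO from -22.9 to 23.8 points. The mean of the 2 single knockouts ran from 23.3% to 72.3% over the 42 tiles with both, with a median of 50.8%. It was under 40% at 7 tiles, between 40% and 60% at 28 and above 60% at 7, and under 20% at none. Tiles that were low in one knockout tended to be low in the other: across the 42 tiles the Tet2KO and Tet3KO levels had r = 0.645 and rho = 0.620. With WT, Tet2KO had r = 0.736 and rho = 0.579, and Tet3KO r = 0.522 and rho = 0.521. With DKO, Tet2KO had r = 0.644 and rho = 0.581, and Tet3KO r = 0.687 and rho = 0.733. These are descriptions across tiles, which share libraries and are not replicates. WT and DKO levels were bounded by the rule, which limits how such values can vary.

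Among the 5 tiles lowest in the single knockouts, tile 2a (chr2:22444201-22444300) had the most even values. Its pro-B libraries ran from 57.1% to 92.5%, with a median of 77.7%. In follicular cells it was at 30.3%, 32.8% and 23.2% in WT, 23.1%, 25.9% and 36.1% in Tet2KO, 30.3%, 32.3% and 39.3% in Tet3KO, and 26.1%, 26.4% and 21.7% in DKO. All 12 follicular libraries therefore lay below every pro-B library, and the 4 genotypes overlapped. Tile 1c (chr1:56838901-56839000) was similar in follicular cells. It was at 40.2%, 35.4% and 33.3% in WT, 32.3%, 31.6% and 25.4% in Tet2KO, 34.7%, 32.0% and 21.1% in Tet3KO, and 31.2%, 39.1% and 40.9% in DKO. Its pro-B libraries were scattered, however, from 16.7% to 100%, so the stages overlapped there.

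Tile 2c (chr2:127496601-127496700) had the lowest single knockout mean, 23.3%. It was at 8.57%, 6.67% and 19.05% in Tet2KO and at 26.7% and 43.8% in the 2 Tet3KO libraries with a value, against 23.5%, 50% and 20% in WT and 16.7%, 30.8% and 28.6% in DKO. Tet3KO lay above Tet2KO in every library, by 23.8 points with a standard error of 9.63. This was the selected tile with the lowest p for the difference between the single knockouts, 0.0385 in limma, with an adjusted p of 0.946. Its pro-B libraries ranged from 31.2% to 100%. Tile 3a (chr3:62546601-62546700) was at 18.2%, 16.7% and 35.7% in Tet2KO and 46.7% and 4.17% in Tet3KO, a spread as wide as that of its WT libraries at 38.2%, 0% and 11.1%.

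Tile 11f (chr11:113648701-113648800) had the widest gap between WT and DKO. It was at 21.6%, 0% and 0% in WT, at 10.5%, 31.2% and 8.00% in Tet2KO, at 36% and 38.1% in the 2 Tet3KO libraries with a value, and at 66.7%, 50% and 35.3% in DKO. Every DKO library was above every WT library, and the difference of 43.4 points (standard error 9.74) was the largest of the 43. It had the lowest p for DKO against WT among the selected tiles, 0.00205, with an adjusted p of 0.208 in limma. The rule admitted it because its DKO mean of 50.7% stayed under the fixed ceiling. Its neighbour 100 bp away had follicular levels in the same order, 37.6%, 42.1%, 48.3% and 61.9%, from 82.0% in pro-B cells.

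**Figure D3:**
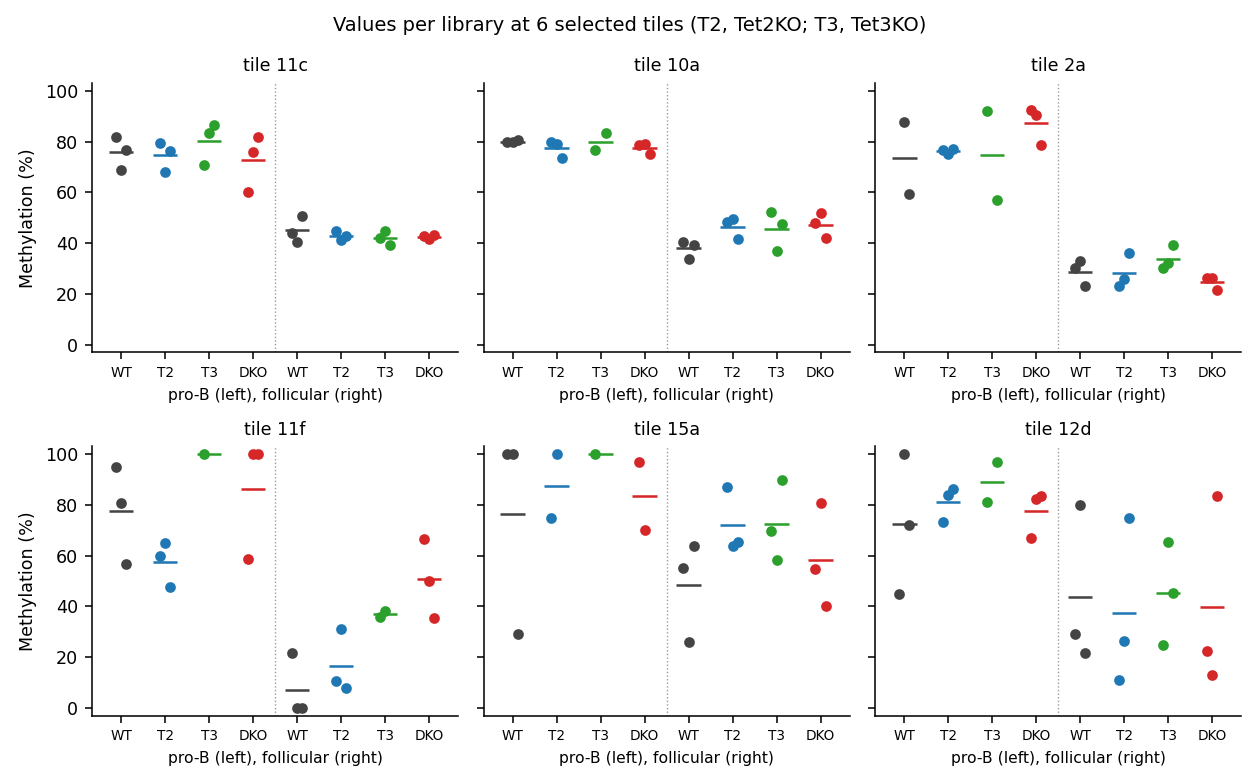
Methylation (%) in every library with a value (points) at 6 selected tiles, pro-B on the left and follicular on the right of each panel, with group means as lines. At tiles 11c and 10a all follicular libraries lie below all pro-B libraries. At tile 11f the follicular group mean is highest in DKO, and at tile 12d the follicular values spread from 11.1% to 83.3%.

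At the upper end, tile 15a (chr15:25412601-25412700) was at 87.0%, 63.6% and 65.5% in Tet2KO and 69.6%, 58.3% and 89.7% in Tet3KO, against 55.2%, 26.1% and 63.6% in WT and 54.5%, 80.6% and 40% in DKO. The single knockout libraries thus mostly lay above WT, and DKO overlapped both. Tile 17a (chr17:6911701-6911800) was at 67.8% ± 10.5 in Tet2KO and 72.7% ± 9.68 in Tet3KO, with pro-B libraries from 42.9% to 100%. Tile 13d (chr13:77760201-77760300) was at 77.4%, 67.3% and 45.5% in Tet2KO and at 44.8%, 55.6% and 100% in Tet3KO. Tile 5a (chr5:24219401-24219500) was at 84.2%, 25.0% and 65.6% in Tet2KO and at 66.1%, 44.7% and 93.8% in Tet3KO, above WT at 38.5%, 29.6% and 34.3% in all but library 17. Tile 19b (chr19:45885701-45885800) had 2 values in each single knockout, 69.6% and 48.4% in Tet2KO and 64.6% and 62.9% in Tet3KO. At 4 of these 5 tiles, library 21 had the highest Tet3KO value, and at tile 19b it had none.

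Across the set DKO was close to WT at most tiles, though WT and DKO were both held low by the rule. The DKO mean was within 10 points of WT at 30 of 43 tiles, more than 10 points above at 10 and more than 10 points below at 3. The difference ran from -16.7 to 43.4 points with a median of 4.68. DKO was below WT at 13 tiles. The 4 smallest differences were at tile 12a (chr12:3068301-3068400), tile 6a (chr6:108571201-108571300), tile 1c and tile 13e (chr13:103191601-103191700). Tile 12a was at 40.8%, 42.9% and 57.8% in WT and at 44.8%, 41.9% and 55.3% in DKO, with the single knockouts between 43.2% and 54.5%. At tile 6a the WT libraries were at 44.4%, 50% and 42.2% and the DKO libraries at 35.3%, 63.6% and 40%, so that the equal means there rest on a wider spread. Tile 13e likewise had WT libraries at 32.7%, 60% and 64.3% and DKO libraries at 59.6%, 57.5% and 43.7%. Besides 11f and 5a, the tiles with DKO highest above WT were tile 3a, at 42.9%, 42.9% and 20% in DKO, and tile 8a (chr8:63329601-63329700), at 57.1%, 76.9% and 40%. The WT libraries of tile 8a were at 47.4%, 35.7% and 36.4%, and its Tet2KO libraries at 73.9%, 40% and 57.1%, so that both groups overlapped DKO. The order WT, Tet2KO, Tet3KO, DKO from low to high held at 3 of 43 tiles. DKO was above both single knockouts at 10 tiles and below both at 13.

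Some tiles were picked out after their values had been seen. Tile 11c (chr11:45538601-45538700) was the only one with a value in all 24 libraries. Its 12 pro-B libraries ran from 60.2% to 86.5%, with a median of 76.4%. In follicular cells it was at 43.8%, 40.4% and 50.8% in WT, 44.7%, 41.1% and 42.8% in Tet2KO, 41.9%, 44.8% and 39.1% in Tet3KO, and 42.6%, 41.8% and 43.2% in DKO. The 4 genotypes were thus within a few points of each other, with an SD of 2.95 over all 12 libraries. Tile 10a (chr10:103217001-103217100) had 11 pro-B libraries between 73.4% and 83.2%. It was at 40.6%, 33.8% and 39.4% in WT, 48.3%, 49.5% and 41.5% in Tet2KO, 52.4%, 36.9% and 47.7% in Tet3KO, and 47.8%, 51.9% and 41.8% in DKO. Every Tet2KO and DKO library there lay above the 3 WT libraries. Tile 14a (chr14:5194201-5194300) had pro-B libraries from 81.0% to 100%. Its follicular libraries were at 43.8%, 38.2% and 53.1% in WT, 35.7%, 34.7% and 56.8% in Tet2KO, 34.4%, 69.7% and 31.6% in Tet3KO, and 51.3%, 57.1% and 61.5% in DKO. All of them lay below its pro-B libraries, although the Tet3KO libraries were far apart.

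Other tiles were uneven between libraries of one genotype. Tile 12d (chr12:19632801-19632900) was at 80% in WT library 14, 75% in Tet2KO library 18, 65.5% in Tet3KO library 20 and 83.3% in DKO library 24. Its other 8 follicular libraries ran from 11.1% to 45.5%, and every genotype had values on both sides of that gap. The SD over the 12 follicular libraries was 27.1 there and had a median of 13.1 over the 43 tiles. That median was 19.8 in the comparison set, where the genotypes differ, and 4.28 over all tiles of high pro-B level.

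In 13 of the 43 selected tiles (30.2%) all follicular libraries with a value lay below every pro-B library. Over all tiles with a pro-B mean of at least 75% this held at 0.256%, and in the comparison set at 1.87%. The rule used this contrast for WT and DKO, so nothing is read from these shares. For the 6 single knockout libraries alone, the count was 15 of 43, against 0.766% and 11.8%; here too the pro-B side was set by the rule.

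The differences between genotypes in pro-B cells were not used by the rule, which took one mean over all pro-B libraries. At the selected tiles pro-B WT was at 82.7% ± 1.86, Tet2KO at 78.1% ± 1.38 and DKO at 83.6% ± 1.24 (SD, n = 3 each), and Tet3KO at 85.5% ± 3.61 (n = 2, without library 8). WT and DKO libraries overlapped, and all 3 Tet2KO libraries lay below the others. The Tet2KO libraries also had values at more of the tiles in 2 of 3 cases, 43 and 42, than the WT libraries at 27 to 36. On the 14 tiles with values in all 11 libraries, Tet2KO at 79.0%, 79.6% and 82.5% overlapped WT at 77.7%, 81.9% and 82.4%. At tiles with at least 2 values in both genotypes, DKO differed from WT by 0.560 points over 35 selected tiles. It was 13.03 points higher over 265 tiles of the comparison set. In the comparison set all 3 pro-B DKO libraries (89.2% to 91.9%) lay above the 3 WT libraries (76.2% to 79.97%), while at the selected tiles they did not. The floor of 75% on the common pro-B mean limits how far any genotype can fall in both sets.

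No selected tile passed the test for a difference between genotypes. The test was limma with a trended spread, over all autosomal tiles with at least 2 values in each group, and a call needed a Benjamini-Hochberg adjusted p under 0.05 and a difference of at least 20 points. Between follicular Tet3KO and Tet2KO, 2 tiles of 450725 were called higher and 4 lower in Tet3KO (0.000444% and 0.000887%). Of the 42 selected tiles tested, 0 were called and 1 had an unadjusted p under 0.05, as did 5.16% of all tiles. The standard error of that difference at a selected tile had a median of 10.8 points and ran from 3.94 to 24.4. Tet3KO was the higher of the 2 at 24 of 42 tiles, with a median difference of 1.28 points.

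Against follicular WT, which the rule held low and which all 3 knockout comparisons share, the fit called 2 tiles higher and 0 lower in Tet2KO (0.000444% and 0%), 28 higher and 3 lower in Tet3KO (0.00621% and 0.000666%), and 1040 higher and 33 lower in DKO (0.231% and 0.00732%). No selected tile was among them. Those with an unadjusted p under 0.05 numbered 0 for Tet2KO, 1 for Tet3KO and 1 for DKO, out of 42 each, beside 4.56%, 5.51% and 7.12% of all tiles. The DKO comparison in the selected tiles was bounded by the rule and nothing is read from it. In pro-B cells, 21 selected tiles had the values the fit over all 24 libraries needs. None was called in Tet2KO, Tet3KO or DKO against WT in limma, where 0.0558%, 0.164% and 0.187% of 200813 tiles were called higher and 0.0129%, 0.257% and 0.0438% lower; 2, 1 and 1 of the 21 had an unadjusted p under 0.05, as did 6.76%, 10.3% and 8.83% of all tiles. The test of whether the difference between Tet3KO and Tet2KO changed between stages called none of the 21 either, with 2 at an unadjusted p under 0.05 (5.96% of all tiles), against 0.0598% of tiles called higher and 0.00398% lower. For the difference between DKO and WT it called none, with 1 at an unadjusted p under 0.05 (5.52% of all tiles), against 0.0134% higher and 0.0154% lower.

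At most selected tiles the low level did not extend to the tiles around them. Within 1 kb of 39 of the 43 there were 138 further tiles with the values the rule needs that were not selected. In follicular cells they were at 82.9% ± 0.588 (WT), 82.5% ± 0.678 (Tet2KO), 83.0% ± 0.944 (Tet3KO) and 84.2% ± 0.981 (DKO; SD, n = 3 each), beside 85.4% in the 11 pro-B libraries. Of these neighbours 124 had a pro-B mean of at least 75% and 105 a WT mean of at least 80%, while 4 were under 20% in pro-B cells. Even at 100 bp, the 44 neighbouring tiles were at 85.3% in pro-B cells, and in follicular cells at 80.3% (WT), 80.2% (Tet2KO), 81.1% (Tet3KO) and 83.1% (DKO). At 35 of the 38 selected tiles with both values, the neighbours were more methylated in the single knockouts than the tile itself, by more than 20 points at 29. The 660 neighbours of the comparison set were already lower in pro-B cells, at 67.6%, with 90 of them under 20%. In follicular cells they were at 62.4% in WT, and 67.4%, 69.4% and 75.04% in Tet2KO, Tet3KO and DKO.

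Around tile 11c the 15 neighbours were between 84.4% and 92.1% in pro-B cells and between 88.1% and 94.5% in follicular WT, so that none of these 15 shared its fall. Around tile 10a the 6 neighbours were between 77.6% and 93.2% in follicular WT. Tiles 2a, 11d and 12c each had a neighbour with a larger gap between pro-B and follicular WT than their own. The neighbour of 11d, 200 bp away, was at 89.5% in pro-B cells. In follicular cells it was at 37.1% (WT), 49.9% (Tet2KO), 54.9% (Tet3KO) and 89.8% (DKO), so in DKO it stayed near its pro-B level. The neighbour of 12c, 800 bp away, was at 71.2% in pro-B cells. Its follicular levels were 39.3% (WT), 33.7% (Tet2KO), 43.6% (Tet3KO) and 37.9% (DKO). Beside tile 2a, at 100 bp towards higher coordinates the level was 71.6% in pro-B cells, and 11.5% (WT), 13.7% (Tet2KO), 15.2% (Tet3KO) and 10.5% (DKO) in follicular cells, while on the other side it was 80.2% in WT. Since its pro-B mean was under 75%, that neighbour was not selected. The only 2 selected tiles within 1 Mb of each other were 12b and 12c, 1500 bp apart. Tile 12c was at 55.6%, 45.8% and 58.8% in Tet2KO and at 56.0% and 50% in Tet3KO. Tile 12b was at 60%, 50% and 58.1% in Tet2KO and at 59.1%, 60% and 75% in Tet3KO.

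**Figure D4:**
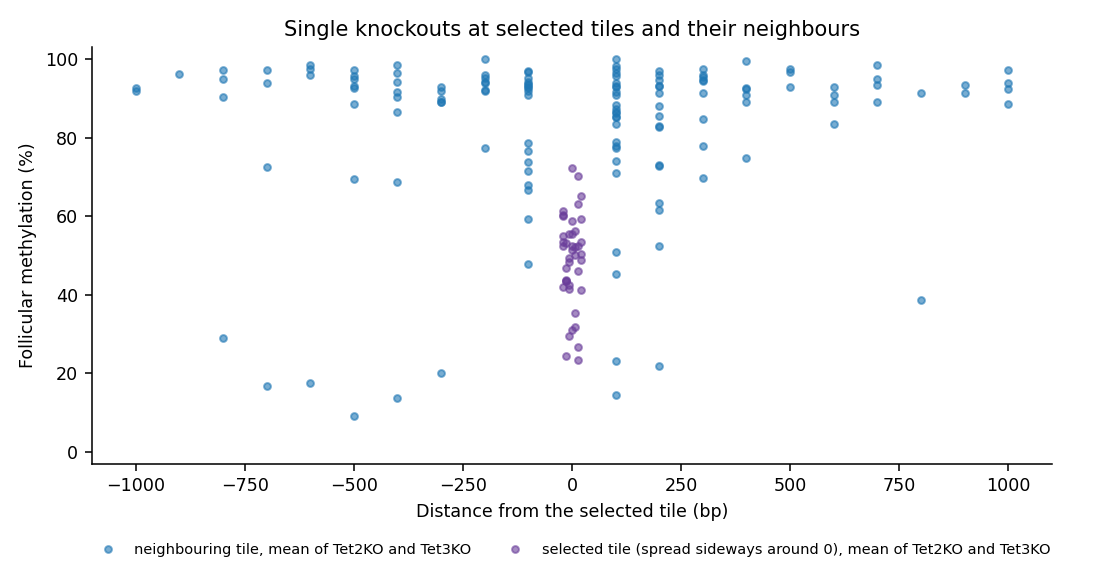
Follicular methylation (%), as the mean of Tet2KO and Tet3KO, at the selected tiles (drawn around 0) and at their neighbours within 1000 bp, by distance in bp. Most neighbours lie above 80%, including those 100 bp away, and the selected tiles between 23.3% and 72.3%.

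No 2 selected tiles lay within 500 bp of each other, so none formed a region of 2 or more. Chromosome 11 held 6, chromosomes 2 and 13 held 5 each and chromosome 12 held 4, while chromosomes 9 and 18 held none. In the first 10 Mb covered on their chromosome lay 7 of the 43 (16.3%), against 8.02% of the comparison set and 7.42% of all tiles of high pro-B level. They were tiles 7a, 11a, 12a, 12b, 12c, 14a and 17a. Tiles with a value within 1 kb numbered a median of 3 per selected tile, as over all tiles of high pro-B level, and 4 in the comparison set. Gene names, genome sequence and the position relative to promoters were not used here, since the reference tables at hand were of another mouse build.

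Because the tiles were picked for extreme values, their levels were measured again in libraries that the choice had not used. With 1 follicular WT and 1 follicular DKO library left out of the choice in turn, the 54 to 78 tiles then chosen were at 53.5% ± 2.46 in the left-out WT libraries and 58.1% ± 2.46 in the left-out DKO libraries (SD, n = 3 each). The same libraries were at 43.7% and 48.3% at the tiles they had helped to choose. With all pro-B libraries of 1 genotype left out as well (52 to 118 tiles over 36 choices), the left-out pro-B libraries were at 62.8% ± 1.10 in WT, 68.0% ± 1.46 in Tet2KO and 71.7% ± 1.42 in DKO (SD, n = 3 each), and at 72.1% ± 5.14 in Tet3KO (n = 2). Over these choices follicular WT was at 52.8% ± 1.49, Tet2KO at 53.2% ± 1.54, Tet3KO at 54.99% ± 1.66 and DKO at 58.4% ± 1.85 (SD, n = 3 each). Every DKO library lay above every library of the other follicular groups, under a ceiling of 60% where WT had 55%. The pro-B and follicular levels in left-out libraries thus stood nearer to each other than at the selected tiles, on both sides of the comparison.

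On the same tiles and in libraries of 1 genotype that had taken no part in the choice, follicular cells were below pro-B cells by 10.2 points (WT), 16.6 (Tet2KO), 18.7 (Tet3KO) and 13.9 (DKO). Over the pairs of 1 pro-B and 1 follicular library, the gap ran from 5.87 to 16.9 points in WT and from 9.61 to 18.9 points in DKO. It ran from 13.8 to 19.3 points in Tet2KO and from 12.4 to 24.03 in Tet3KO, so that each pair had the lower level in follicular cells. At the selected tiles, chosen with all pro-B libraries and with follicular WT and DKO, the gaps were 38.4 points (WT), 30.5 (Tet2KO), 35.6 (Tet3KO) and 35.3 (DKO). Tile by tile, pro-B minus follicular ran from -17.9 to 72.1 points in Tet2KO and from -14.0 to 64.4 in Tet3KO. Some tiles were thus higher in follicular cells of a single knockout. In WT it ran from 16.6 to 75.2 points, and in DKO from 10.4 to 71.4. The gap in WT went from the largest of the 4 to the smallest once the choice no longer used the libraries measured. In WT and DKO the choice had used both stages, but in the single knockouts only pro-B cells. The shrinkage is therefore not alike between genotypes, and nothing is read from its order. The left-out gaps of WT and DKO overlapped.

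**Figure D5:**
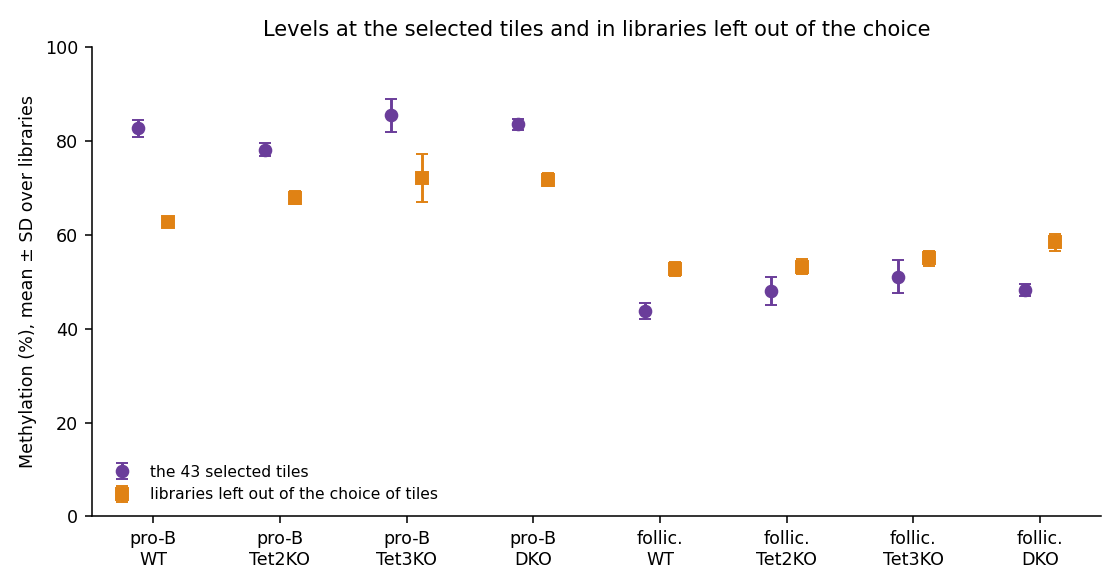
Mean methylation (%) by stage and genotype, with the SD over libraries: at the 43 selected tiles (circles) and at tiles chosen without the libraries measured (squares); pro-B Tet3KO has 2 libraries. In left-out libraries the pro-B means are 62.8% to 72.1% and the follicular means 52.8% to 58.4%.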

How the data were processed

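Methylation levels of 24 RRBS libraries were analysed; 16 RNA samples of the series were not analysed here. The deposited table gives, as made by the authors, a fraction of methylation from 0 to 1 per library for tiles of 100 bp, per the file headers, with no read counts; fractions were multiplied by 100. Trim Galore and methylKit, without versions, and the builds mm9 and hg19 are named in the submitters' processing notes. The aligner, coverage minimum and conversion rate are not given in the sources used here. Mouse coordinates were taken as mm9, since chromosome 1 reaches position 197193600. No library had a value at 175118 tiles.

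Tiles were selected by the stated limits on group means, taken over the libraries with a value. Groups, sexes and ages come from the labels. The rule, the comparison set and the tests were chosen with earlier results of these data known. Levels per library are means over tiles with a value; such means were not tested. Limma 3.58.1 (R 4.3.3, with version 1.17.8 of data.table) was fitted to the percentages of autosomal tiles with at least 2 values in each group, over the 12 follicular libraries (8 residual degrees of freedom) or all 24, with 2-sided p-values adjusted over all tiles, and tested on simulated data. Missing values were left out tile by tile, with none imputed. Other values used Python 3.11.15, pandas 2.3.3, NumPy 2.4.6, SciPy 1.17.1 and Matplotlib 3.10.9.

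Tiles are named by rule: the 5 lowest and 5 highest in the single knockouts, the 4 with DKO nearest to WT, the 4 with DKO highest above WT, and the 2 on each side of each limit. Parts of the rule for joined regions and for called tiles named none. Tiles 11c, 10a, 14a and 12d were added after their values were seen.

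The alternatives were stricter limits, other sets of pro-B libraries, X and Y kept, left-out libraries, other neighbour windows, logit values, other fits and filters, and sex or a sex and age block. No running number is shared between groups. In each genotype the 3 pro-B and the 3 follicular libraries have the same sexes and ages; the labels do not say whether they share mice, and fits over both stages treat them as independent.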

Additional observations from a re-analysis of the deposited data

How the results depend on the processing

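Most alternatives kept the WT and DKO ceilings, which limits how far the level of the tiles could move. A similar level under them is therefore not read as stability. The number of selected tiles depended on the settings. It was 5 with limits of 80%, 45% and 50%, 23 with values asked in 10 pro-B libraries, 168 with the pro-B mean taken from WT only and 85 with the pro-B libraries of over 400000 tiles only, an alternative chosen after seeing the data. Of these 168 and 85 tiles, 29 and 33 were among the 43. Leaving out 1 follicular WT or DKO library at a time gave 46 to 57 tiles. Of the 43 tiles, 21 were chosen whichever WT or DKO library was left out, and 2 (4c and 7a, named after this was seen) under all 14 alternatives. Under the stricter limits Tet2KO was at 32.4% and Tet3KO at 40.6%, and both shares at or under 60% were 100%. Leaving out a library gave 47.0% to 52.6% for Tet2KO, 49.1% to 54.4% for Tet3KO, and shares of 72.5% to 88.1% and 58.5% to 85.4%. Neighbours at least 200 bp away were at 83.8% in the single knockouts, against 82.8% for all. In left-out libraries follicular WT was at 53.5% and DKO at 58.1% with 1 library of each left out, and at 52.8% and 58.4% with a pro-B genotype also left out. The left-out pro-B levels of WT, Tet2KO, Tet3KO and DKO were 64.6%, 66.5%, 75.7% and 69.9% when only pro-B libraries were left out, and 62.8%, 68.0%, 72.1% and 71.7% with follicular libraries left out too; leaving out both was chosen after seeing the data. The 6 tiles called between Tet3KO and Tet2KO became 34 on the logit scale, 0 with only the 2 groups fitted, 2 with all 24 libraries, 1 at 30 points, 0 with a value asked in all 12 follicular libraries, and 5 to 299 with a library left out (most without library 20). The labels pair no libraries across genotypes. With the sex and age stratum as a block in place of pairing, 3 residual degrees of freedom were left and 959 tiles were called. Tet2KO and Tet3KO share no such stratum. That fit compares them only through DKO, with library 24 as the only link, so nothing is read from its count. Against follicular WT the logit scale called 12 tiles for Tet2KO and 73 for Tet3KO, and leaving out a library 0 to 131 and 9 to 356. In pro-B cells the latter gave 136 to 1152 for Tet2KO, 769 to 5163 for Tet3KO and 447 to 1638 for DKO. A group left with 1 value is taken to vary as the others do. No selected tile was called in any of these fits. The unknown depth limits every single value, and a tile can be chosen on few reads.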
